A study of Homo sapiens with 6 samples.

Results

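The genes described here are the 6 human alpha-arrestins, TXNIP and ARRDC1 to ARRDC5, together with 3 transcription factors of the glucose response, MLXIP (MondoA), MLXIPL (ChREBP) and MLX. They were chosen by name, as the rows of a table of 57819 genes that carry these 9 symbols, and all 9 were found. TXNIP and ARRDC4 were already known to be lower after the knockdown when the set was drawn up. The values of the 9 genes are therefore given as a description, with no p-value for any of them. The fit gives their fold changes with standard errors or intervals. The test is used to count members called, beside the share of all genes, and to say which calls depended on the fit.

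The fibroblast line IMR90, from human lung, is widely used to study senescence; ER:Ras names a Ras oncogene fused to an oestrogen receptor domain, so that 4-hydroxytamoxifen (4OHT) switches Ras on and drives the cells into senescence. All 6 libraries came from IMR90 ER:Ras cells treated with 200 nM 4OHT for 3 days, and no group without 4OHT was compared here. In 3 libraries the cells had a scrambled control siRNA (siSCR), and in 3 they had an siRNA that targets sin-lncRNA, a noncoding transcript (the labels call this siRNA si1; the table's columns for these libraries read si1.3, an ending that is not explained). The question put by the design was what loss of this RNA changes in cells treated with 4OHT. Whether the cells were senescent was not examined here. Nothing in the labels says that the replicates were separate cultures, so the spread between them may be technical.

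Alpha-arrestins are adaptor proteins. Their PPxY motifs recruit ubiquitin ligases of the NEDD4 family, which tag membrane proteins for removal from the cell surface. TXNIP also binds thioredoxin and blocks its activity, and TXNIP and ARRDC4 lower glucose uptake by taking glucose transporters off the surface. Transcription of both genes is known to follow glucose supply: MondoA or ChREBP pairs with MLX, enters the nucleus when sugar phosphates build up, and binds carbohydrate response elements made of a pair of E-box-like hexamers.

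The libraries held 30271192 to 50913672 reads in genes in the control group and 22117324 to 27882280 in the knockdown group, so depth separated the groups, with all knockdowns below all controls; the part of depth in the results was not tested. Levels are given as RPM, reads per 1000000 of a library's effective size. The target itself stood at 4.17 ± 0.52 RPM in controls and 0.556 ± 0.076 RPM in knockdowns (SD, n = 3), or 13.3% of control. All 10 fibroblast markers were present, with a summed level of 15670 to 16890 RPM in controls and 11350 to 11760 RPM in knockdowns. The markers went both ways: the means of COL1A1 (6617 and 3599 RPM), COL1A2, VIM, PDGFRB and DCN were lower in knockdowns, and those of COL3A1 (1555 and 2015 RPM), PDGFRA, FAP, THY1 and LUM were higher. None of 5 immune markers reached 1 RPM in any library (PTPRC was near 0). Of the epithelial markers 1 of 6 reached it (CLDN4; KRT5 had 0 reads and CDH1 was near 0), with sums of 4.35 to 5.09 RPM in controls and 3.07 to 3.63 RPM in knockdowns. Of the 4 endothelial markers found, 2 reached it (TIE1 and VWF), with sums of 15.2 to 18.6 RPM in controls and 10.7 to 11.2 RPM in knockdowns, while CDH5 was near 0. TIE1 was lower in knockdowns (means of 14.5 and 8.51 RPM) and VWF higher (1.76 and 2.37 RPM). The part of these shifts in the results was not tested. In RNA from whole cultures, fewer cells that make a transcript and less transcript per cell cannot be told apart.

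TXNIP, the inhibitor of thioredoxin, was the most abundant of the 9 transcripts per kb of exon and was 2.97 times lower in the knockdown. It lies on chromosome 1 from 145438469 to 145442635 (hg19, per the submitters' processing notes). Control libraries 1, 2 and 3 gave 165, 165.0 and 166 RPM, from 5628, 4955 and 8365 reads. Knockdown libraries gave 57.3, 52.9 and 57.0 RPM, from 1279, 1240 and 1599 reads. The control values lay within about 1 RPM of each other, the knockdown values were all far below them, and the groups did not overlap. The control spread was smaller than the counting error to be expected from these reads, so its SD is no measure of precision. The same holds for the controls of ARRDC4 and ARRDC3 below, and for both groups of MLXIP and ARRDC2. The group means were 165.5 ± 0.6 and 55.7 ± 2.4 RPM (SD, n = 3), so that 33.7% of the control level was left. The log2 fold change was -1.57 (SE 0.05), the 24th lowest of the 19048 genes with enough reads to be fitted.

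ARRDC4, the alpha-arrestin closest to TXNIP in its known response to glucose, was lower still. It lies on chromosome 15 from 98462784 to 98517068 (hg19). Control libraries gave 61.0, 61.8 and 61.0 RPM, and knockdown libraries gave 18.6, 15.5 and 15.4 RPM. Knockdown library 1 was the highest of its group, yet it stayed well under the lowest control. The means were 61.2 ± 0.5 and 16.5 ± 1.8 RPM (SD, n = 3), which left 26.9% of the control level. The log2 fold change of -1.90 (SE 0.07) was the 9th lowest of all genes fitted. Among called genes, falls of at least 1 on the log2 scale made up 1.25% of the genes fitted. Set against each other within each library, per kb of exon, TXNIP was 3.04, 3.00 and 3.06 times as abundant as ARRDC4 in controls and 3.46, 3.83 and 4.17 times in knockdowns. The ratio was thus higher in every knockdown library, since ARRDC4 was reduced by the larger factor.

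**Figure D1:**
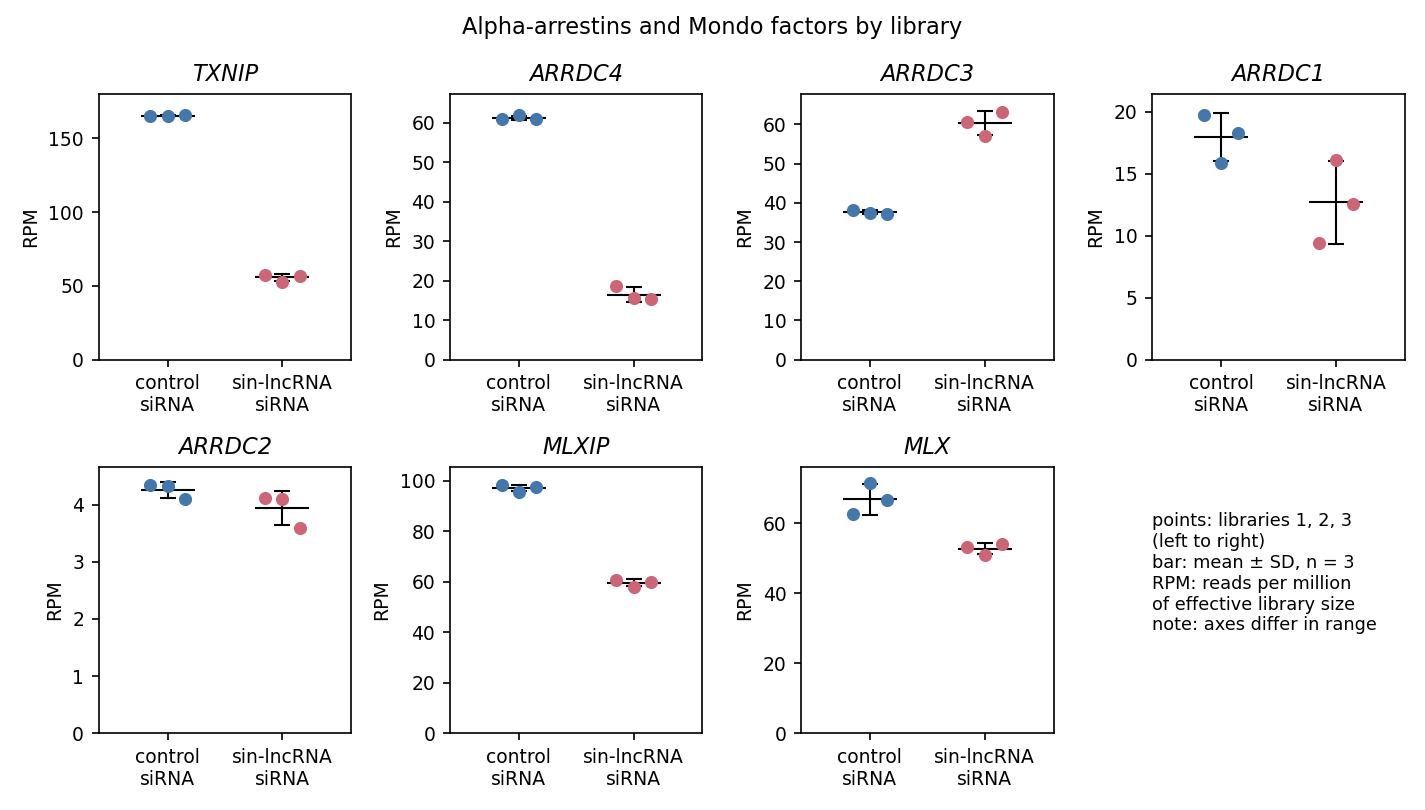
RPM of the 7 members with more than a few reads in each library (y axes start at 0 and differ in range; points are libraries 1 to 3, the bar is the mean ± SD, n = 3). TXNIP, ARRDC4, MLXIP and MLX lie lower in every knockdown library than in any control, ARRDC3 lies higher, and ARRDC1 and ARRDC2 overlap.

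The promoters of both genes are shown because their transcription is known to answer to glucose through such sequences, together with that of ARRDC3, the one member that was higher. Each line holds the 250 bases before a start site listed by RefSeq (GRCh38.p14), 5′ to 3′ on the gene's strand. Capitals mark 3 kinds of match: a pair of hexamers, each with at most 1 mismatch to CACGTG and 5 bases apart; CACGTG itself; and the CCAAT box on either strand (CCAAT or ATTGG), the motif of the factor NF-Y. TXNIP is at chr1:145996580-145996829 (minus strand), ARRDC4 at chr15:97960453-97960702 (plus strand) and ARRDC3 at chr5:91383318-91383567 (minus strand).
TXNIP: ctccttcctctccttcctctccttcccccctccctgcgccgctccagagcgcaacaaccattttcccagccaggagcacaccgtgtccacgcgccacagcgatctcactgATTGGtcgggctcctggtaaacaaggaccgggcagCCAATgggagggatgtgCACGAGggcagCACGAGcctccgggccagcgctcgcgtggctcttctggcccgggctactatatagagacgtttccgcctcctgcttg
ARRDC4: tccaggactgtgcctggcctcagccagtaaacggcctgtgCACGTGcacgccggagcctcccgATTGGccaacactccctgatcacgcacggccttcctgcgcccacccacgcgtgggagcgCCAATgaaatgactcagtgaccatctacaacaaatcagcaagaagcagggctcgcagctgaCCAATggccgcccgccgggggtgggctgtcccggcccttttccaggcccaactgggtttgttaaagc
ARRDC3: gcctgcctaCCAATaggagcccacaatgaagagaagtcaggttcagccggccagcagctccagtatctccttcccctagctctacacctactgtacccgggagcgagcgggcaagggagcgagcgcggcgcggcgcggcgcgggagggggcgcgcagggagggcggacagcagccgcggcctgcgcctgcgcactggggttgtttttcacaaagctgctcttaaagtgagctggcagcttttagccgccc

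In the TXNIP promoter the pair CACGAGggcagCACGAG stands at -88 to -72 from the start, with CCAAT boxes at -105 to -101 and, inverted, at -140 to -136. Among 35116 windows of 300 bases (250 before and 50 after a start), 0.421% hold such a pair. None of the other members' windows did. ARRDC4 holds CACGTG at -210 to -205, as 7.26% of windows do, and 3 CCAAT boxes, at -187, -128 and -67, a number that 3.26% of windows reach. At least 2 CCAAT boxes, as in TXNIP, were in 10.8% of windows. MLX has CACGTG at -50 to -45. The single CCAAT box of ARRDC3 lies at -241, farther from the start than the nearest box of any other member that has one. RefSeq windows were found for 8 of the 9 members, and TXNIP, ARRDC2 and ARRDC3 have 2 windows each. In each of these genes 1 of the 2 windows holds no match, and neither does the window of MLXIPL. A match is a run of letters in the reference, not a bound site.

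**Figure D2:**
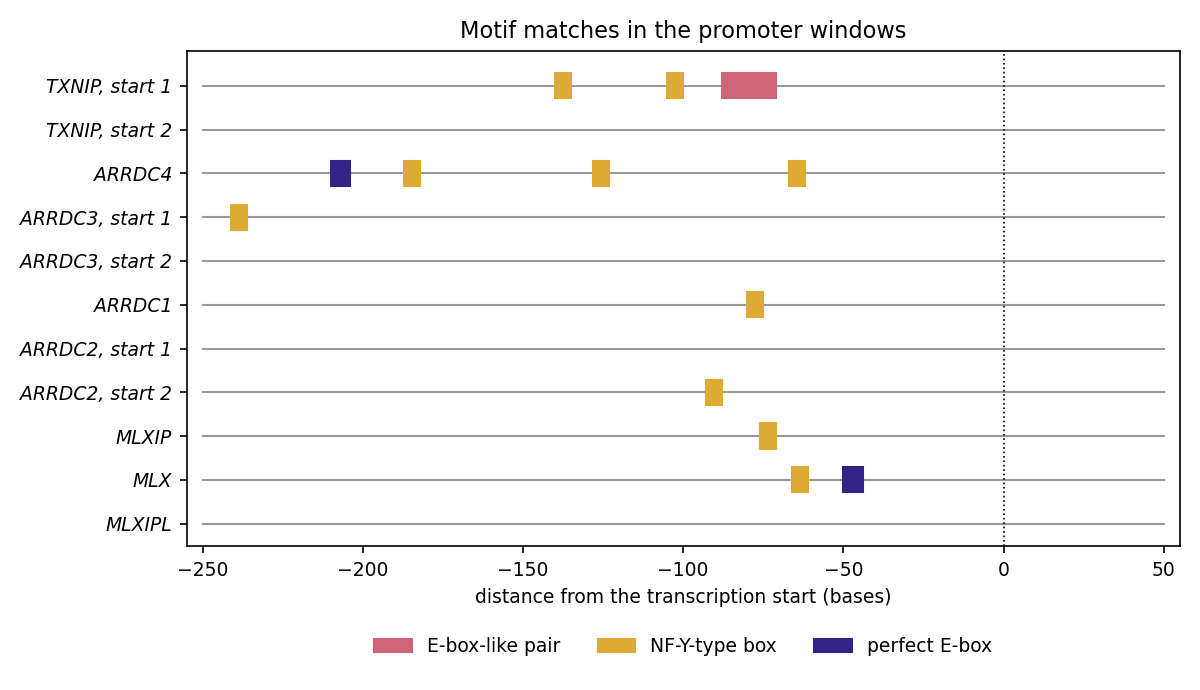
Positions of the matches in the windows of 8 members (x axis: bases from the transcription start; each line is 1 window). The E-box-like pair is in TXNIP alone, CACGTG is in ARRDC4 and MLX, and ARRDC4 holds 3 boxes of the NF-Y type.

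ARRDC3, an alpha-arrestin known for removing the beta-2 adrenergic receptor and for opposing growth of some tumour cells, stood at 38.1, 37.5 and 37.2 RPM in controls and at 60.5, 57.2 and 63.2 RPM in knockdowns. All knockdown libraries were above all controls, opposite in direction to TXNIP and ARRDC4. The means were 37.6 ± 0.4 and 60.3 ± 3.0 RPM (SD, n = 3), or 160% of control, and the log2 fold change was 0.68 (SE 0.05). The gene lies on chromosome 5 from 90664541 to 90679176 (hg19), and no other gene of the table overlaps it.

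ARRDC1, which drives the budding of small vesicles from the plasma membrane, had the widest spread between replicates, relative to its mean (a coefficient of variation of 10.8% in controls and 26.5% in knockdowns), of the 7 members with more than a few reads. Controls gave 19.7, 15.9 and 18.3 RPM, and knockdowns gave 9.41, 16.1 and 12.6 RPM. Knockdown library 2 lay above the lowest control, so the groups overlapped. The means were 18.0 ± 2.0 and 12.7 ± 3.4 RPM (SD, n = 3), with a log2 fold change of -0.53 (SE 0.16). That value was -0.33 without knockdown replicate 1 and -0.72 without knockdown replicate 2. ARRDC1 lies on chromosome 9 from 140500106 to 140509812 (hg19) and overlaps C9orf37 on the opposite strand. C9orf37 gave 8.63 ± 1.04 RPM in controls and 7.62 ± 0.74 RPM in knockdowns (SD, n = 3), and because the strand setting of the counting is not stated, reads of the 2 genes may be mixed.

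ARRDC2, a little studied member, stood at 4.35, 4.33 and 4.09 RPM in controls and 4.12, 4.10 and 3.60 RPM in knockdowns, from 92 to 206 reads per library. The groups overlapped, and the log2 fold change was -0.11, with a 95% interval from -0.35 to 0.13. ARRDC5 had 0 reads in all 6 libraries, which allows up to 3 reads, or 0.0596 to 0.134 RPM depending on the library (counting error only). It is thus the alpha-arrestin for which no transcript was detected at this depth.

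Lengths here are those of all annotated exons of a gene, not of the transcripts made, so comparisons between genes per kb are approximate. Per kb of exon, the 5 detected alpha-arrestins summed to 73.9 ± 0.5 RPM per kb in controls and 35.8 ± 0.6 in knockdowns (SD, n = 3). TXNIP made up 61.7% ± 0.4 of that sum in controls and 42.9% ± 1.2 in knockdowns. ARRDC4 went from 20.4% ± 0.3 to 11.3% ± 1.2, and ARRDC3 from 10.3% ± 0.1 to 34.1% ± 1.1. A smaller sum and other shares follow from the lower TXNIP and ARRDC4, which were known when the set was drawn up. With a smaller sum, a share can rise without a rise in level. The ARRDC1 share went from 6.36% ± 0.65 to 9.31% ± 2.60, and that of ARRDC2 from 1.24% ± 0.04 to 2.37% ± 0.21. Per kb, ARRDC4 stood at 1.97 ± 0.03 times ARRDC3 in controls and at 0.332 ± 0.039 times in knockdowns, so their order was turned. TXNIP stayed the leading member, at 5.91, 5.98 and 6.08 times ARRDC3 in the control libraries and 1.29, 1.26 and 1.23 times in the knockdown libraries. ARRDC1 (4.71 ± 0.51 and 3.33 ± 0.88 RPM per kb) and ARRDC2 (0.918 ± 0.031 and 0.850 ± 0.064) stayed low in both groups. In knockdowns the libraries of ARRDC4 overlapped those of ARRDC1, while in controls they did not.

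**Figure D3:**
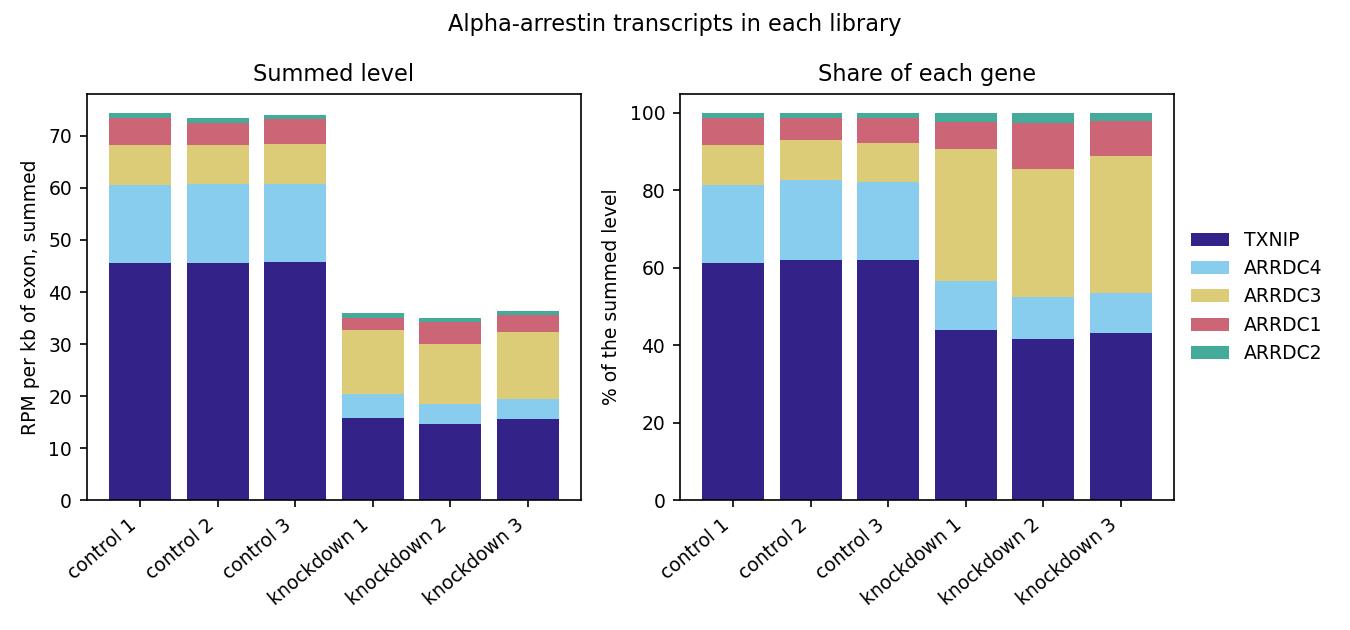
Level of each detected alpha-arrestin per kb of exon, stacked for each library (left, summed RPM per kb; right, % of the sum). The sum is 73.4 to 74.4 in controls and 35.1 to 36.4 in knockdowns, and the ARRDC3 share is 10.2% to 10.4% against 33.0% to 35.2%.

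MLXIP, the sugar-sensing partner best known from muscle, stood at 98.3, 95.7 and 97.4 RPM in controls and 60.8, 58.0 and 60.1 RPM in knockdowns. The groups did not overlap, with means of 97.1 ± 1.3 and 59.6 ± 1.5 RPM (SD, n = 3). The log2 fold change was -0.70 (SE 0.04), with 61.4% of the control level left. MLXIP lies on chromosome 12 from 122516628 to 122631894 (hg19).

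MLX, the common dimer partner, stood at 62.6, 71.5 and 66.7 RPM in controls and 53.2, 51.1 and 54.0 RPM in knockdowns. Every knockdown library was below every control, and the log2 fold change was -0.34 (SE 0.06). Within each library MLXIP was 0.481, 0.410 and 0.448 times as abundant as MLX per kb in controls and 0.350, 0.348 and 0.341 times in knockdowns, so the sensor was lower relative to its partner in each knockdown library. MLX lies on chromosome 17 from 40719086 to 40725257 (hg19) and overlaps PSMC3IP on the opposite strand. PSMC3IP gave 2.56 ± 0.40 RPM in controls and 2.76 ± 0.41 RPM in knockdowns.

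MLXIPL, the sensor best known from liver and fat, gave 1, 0 and 2 reads in controls and 0, 1 and 2 reads in knockdowns. No library was above the 3 reads that a count of 0 allows, so no difference could be seen at this depth. MLXIPL and ARRDC5 did not pass the filter on low values, and the other 7 members did.

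In the fit over all genes (limma), 6 of these 7 members passed an adjusted p of 0.05, 5 lower and 1 higher (ARRDC2 did not), where 41.0% of all genes fitted did so. ARRDC1 is among the 5, and the count of members called was 5 in each of the 7 other fits in which it was not called, among them those without control replicate 1, control replicate 3, knockdown replicate 1 or knockdown replicate 3. Libraries of the groups did not overlap for 5 of the 7, 4 lower and 1 higher, where that held for 51.1% of all genes fitted (28.5% lower and 22.6% higher). Nothing is read from these counts, because the members were named with the contrast known. Over all genes fitted, the log2 fold change had a median of -0.04.

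**Figure D4:**
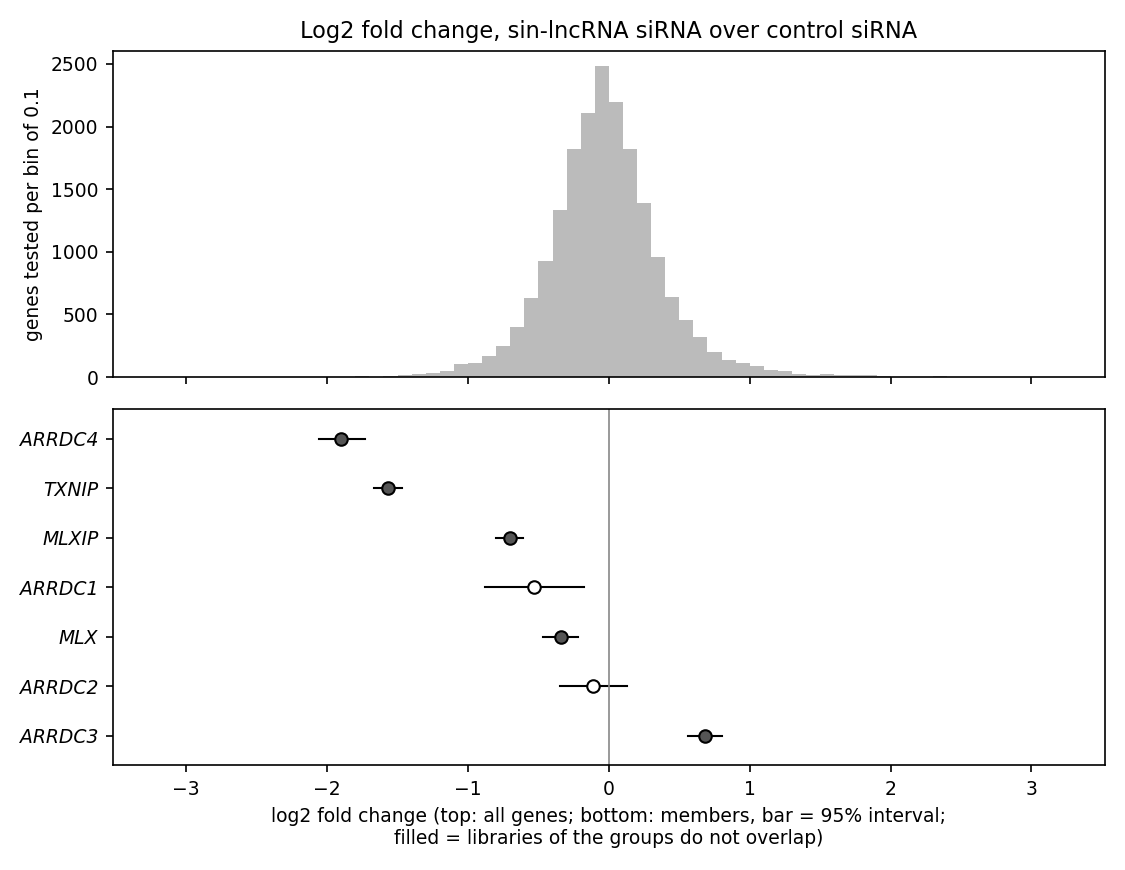
Top, number of genes per bin of log2 fold change for the 19048 genes fitted; bottom, the 7 members with their 95% intervals (filled points have groups of libraries that do not overlap). ARRDC4 at -1.90 and TXNIP at -1.57 lie in the far left tail, and ARRDC3 at 0.68 on the right.

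Genes that work with the alpha-arrestins were followed in 8 lists of 106 genes, of which 90 were fitted. Of these, 18 rose and 35 fell (limma, Benjamini-Hochberg adjusted p under 0.05), against 17.5% higher and 23.5% lower over all genes.

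Known glucose-response targets of ChREBP and MondoA other than the members were called lower in 9 of 14 fitted genes and higher in 4, with a median log2 fold change of -0.34. HK2, the inducible hexokinase and also in the next list, fell from 80.3 ± 7.8 to 51.5 ± 1.0 RPM (SD, n = 3; log2 fold change -0.64, SE 0.07, limma adjusted p = 3.2e-05). ACLY, which makes cytosolic acetyl-CoA, fell by 0.56 on the log2 scale (adjusted p = 1.8e-05). RGS16, a brake on G-protein signalling, moved the other way, from 4.45 ± 0.21 to 6.48 ± 0.44 RPM (log2 fold change 0.54, adjusted p = 0.0013). KHK, the fructose kinase, fell by 1.26 at a level under 1 RPM in both groups (adjusted p = 0.038), and lost its call without control replicate 3 (-1.40, adjusted p = 0.065) or knockdown replicate 2 (-0.78, adjusted p = 0.099). Without knockdown replicate 3 the fall was larger and still called (-1.61). The call was also lost with the replicate number as a block (-1.26, adjusted p = 0.072), with a pseudocount of 5 RPM (-0.075, 0.051) and without a variance trend (-1.26, 0.07). Without control replicate 1 or control replicate 2, KHK did not pass the filter and was not fitted. Its reads numbered 2 to 20 per library.

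Among glucose transporters and enzymes at the first phosphorylation step, 5 of 11 fell and 1 rose (median -0.22). SLC2A1, the basal glucose transporter and a known cargo of TXNIP, fell from 94.7 ± 2.0 to 75.7 ± 0.2 RPM (log2 fold change -0.32, SE 0.04, limma adjusted p = 0.00015). G6PC3, a glucose-6-phosphatase found in most tissues, fell by 0.75 on the log2 scale (adjusted p = 7.0e-06). HK1, the basal hexokinase, fell by 0.40 (adjusted p = 0.00012). SLC2A3, a high-affinity transporter, rose by little (0.16, adjusted p = 0.032), and its reads may be shared with its near-identical copy SLC2A14. The SLC2A3 call was lost without control replicate 1 (0.11, adjusted p = 0.094), control replicate 3 (0.16, 0.097), knockdown replicate 2 (0.17, 0.065) or knockdown replicate 3 (0.14, 0.12), and with the replicate number as a block (0.16, 0.057). It was also lost without a variance trend (0.16, 0.12). SLC2A4, the insulin-responsive transporter, gave 7, 5 and 9 reads in controls and 1 in each knockdown library, too few to be fitted.

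The thioredoxin system, which TXNIP restrains, was followed in 1 list with glutaredoxins, peroxiredoxins and related genes. In that list 10 of 19 genes were lower and 1 higher (median -0.20). TXN, the thioredoxin that TXNIP binds, fell from 129 ± 5 to 96.7 ± 1.8 RPM (log2 fold change -0.41, SE 0.05, limma adjusted p = 4.5e-05). TXN2, its mitochondrial form, fell by 0.80 (adjusted p = 7.4e-07), the largest fall of this list. TXNRD1, the cytosolic reductase that recharges thioredoxin, fell by 0.50 (adjusted p = 0.00016) and GLRX2, a glutaredoxin, by 0.44 (0.0013). PRDX4, the peroxiredoxin of the endoplasmic reticulum, was the gene that rose, from 64.4 ± 3.7 to 91.8 ± 6.3 RPM (0.51, adjusted p = 9.0e-05).

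Ubiquitin ligases of the NEDD4 family, the partners of the PPxY motifs, were listed together with their adaptors NDFIP1 and NDFIP2. These genes went both ways, with 3 of 11 higher and 4 lower (median 0.02). NEDD4 rose from 40.1 ± 4.6 to 63.5 ± 1.6 RPM (log2 fold change 0.67, SE 0.07, limma adjusted p = 5.1e-05) and HECW2 by 0.51 (0.0032). ITCH fell by 0.35 (adjusted p = 0.00028) and NEDD4L by 0.42 (0.0028). HECW1 fell by 0.65 at about 1 RPM (adjusted p = 0.027) and lost its call without control replicate 1 (-0.63, 0.066), control replicate 2 (-0.54, 0.11), knockdown replicate 2 (-0.58, 0.071) or knockdown replicate 3 (-0.67, 0.053), and with the replicate number as a block (-0.65, 0.055). WWP1 rose by only 0.15 (adjusted p = 0.047), a call lost in each of the 6 fits that left out a library, with values from 0.12 to 0.16 and adjusted p from 0.051 to 0.19, and under the block (0.15, 0.10). The WWP1 call was also lost without a variance trend (0.15, 0.067) and with no filter (0.15, 0.079).

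Genes of the wider MYC-MAX-MXD network to which MLX is linked, not all of them direct partners of MLX, were also mixed. Of these, 3 of 8 were higher and 2 lower (median 0.07). MYC fell from 39.2 ± 1.3 to 26.9 ± 1.3 RPM (log2 fold change -0.55, SE 0.06, limma adjusted p = 3.3e-05), and MXD1, a repressor that competes with MYC, fell by 0.50 (0.00056). MXI1, another such repressor, rose by 0.52 (adjusted p = 0.0016). MAX, the partner of MYC, rose by 0.18 (adjusted p = 0.013) and MGA by 0.22 (0.021). The MAX call was lost without control replicate 3 (0.17, 0.069) or knockdown replicate 2 (0.15, 0.055). The MGA call was lost without control replicate 1 (0.16, 0.064), knockdown replicate 1 (0.19, 0.071) or knockdown replicate 3 (0.21, 0.080), and under the block (0.22, 0.063). It was also lost without a variance trend (0.22, 0.083).

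The kinase AMPK marks TXNIP for degradation. Among its subunits and the genes of the kinases upstream of it, 3 of 10 were higher and 2 lower (median -0.05). PRKAB2, a regulatory subunit, rose from 35.2 ± 1.6 to 50.1 ± 1.2 RPM (log2 fold change 0.51, SE 0.05, limma adjusted p = 3.0e-05), while the catalytic subunit PRKAA1 fell by 0.25 (0.0018). PRKAA2 fell by 0.42 (0.027) and PRKAG2 rose by 0.24 (0.033). The other gene called higher was CAB39, which is not an AMPK subunit (0.19, adjusted p = 0.0041), named after its value was seen. PRKAA2 lost its call without control replicate 1 (-0.42, adjusted p = 0.052), control replicate 2 (-0.29, 0.096), knockdown replicate 2 (-0.36, 0.087) or knockdown replicate 3 (-0.39, 0.083), and under the block (-0.42, 0.050). The PRKAA2 call was also lost with quantile normalization (-0.36, 0.055) and without a variance trend (-0.42, 0.071). PRKAG2 lost its call without control replicate 1 (0.20, 0.095), control replicate 3 (0.22, 0.11), knockdown replicate 2 (0.25, 0.065) or knockdown replicate 3 (0.18, 0.14), and under the block (0.24, 0.054). The PRKAG2 call was also lost without a variance trend (0.24, 0.086). STK11, the kinase upstream, did not pass (-0.33, adjusted p = 0.052), but did without control replicate 2 (-0.46, 0.0035) or knockdown replicate 2 (-0.42, 0.029).

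Of the ESCRT genes that ARRDC1 uses to release vesicles, 3 of 12 fell and 2 rose (median -0.13). VPS37B fell from 62.6 ± 2.8 to 41.9 ± 1.3 RPM (log2 fold change -0.58, SE 0.05, limma adjusted p = 1.1e-05), VPS4A by 0.38 (9.1e-05) and PDCD6IP, also called ALIX, by 0.31 (0.00036). VPS4B rose by 0.24 (0.0030). The other was UBAP1 (0.13, adjusted p = 0.039), named after its value was seen. Only 1 ESCRT gene was called higher in 5 of the 6 fits that left out a library, all but that without control replicate 2, in which 5 were lower. TSG101, which ARRDC1 binds directly, did not pass (0.08, adjusted p = 0.19). The other arrestin-fold genes had 1 of 6 higher and 1 lower (median -0.06): ARRB1, a beta-arrestin of receptor desensitisation, rose by 0.30 (adjusted p = 0.011) and VPS26B, a retromer subunit, fell by 0.27 (0.00074), while ARRB2 did not pass (-0.10, 0.52). The ARRB1 call was lost without control replicate 3 (0.26, 0.058) or knockdown replicate 3 (0.25, 0.057).

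**Figure D5:**
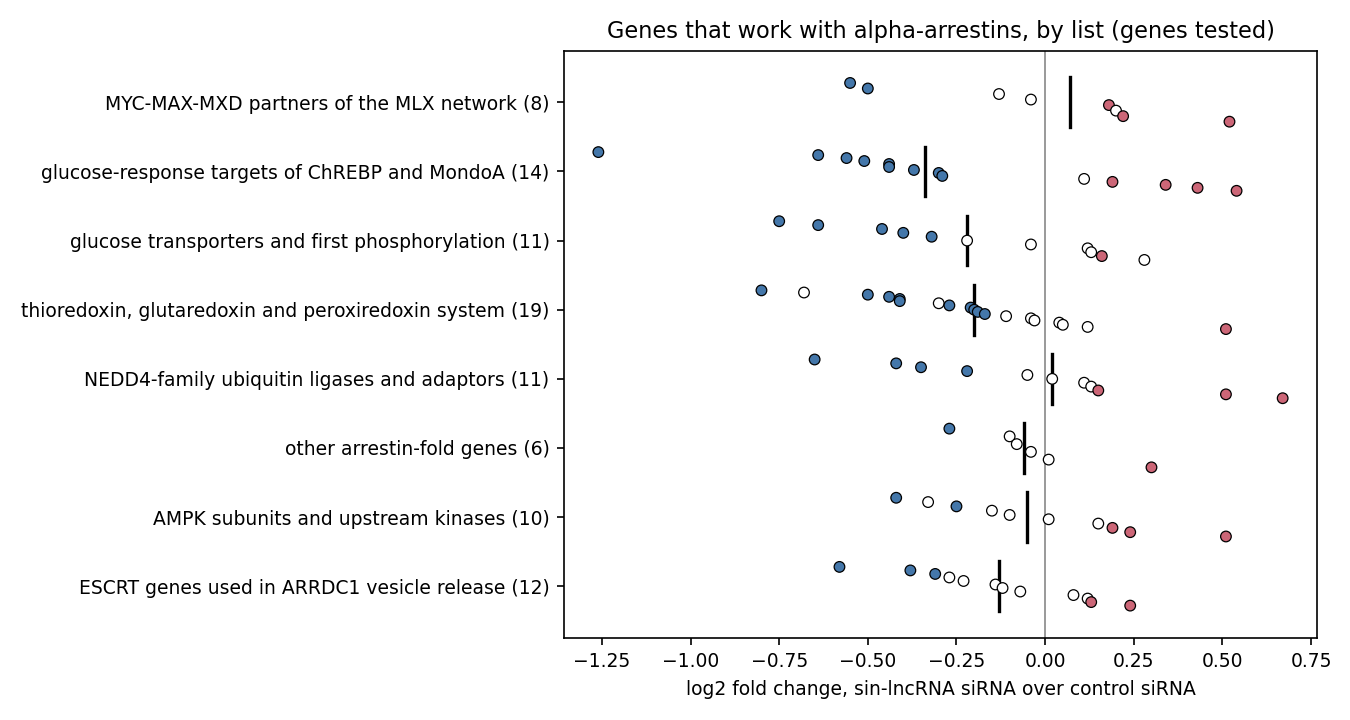
Log2 fold change of each fitted gene in the 8 lists (blue, lower and red, higher at an adjusted p under 0.05; white, not called; black bar, median; in brackets, genes fitted). The medians run from -0.34 for the glucose-response targets to 0.07 for the MYC network.

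Likeness to TXNIP and ARRDC4 was measured as the Euclidean distance between the 6 log2 values, each gene centred on its own mean, over 11561 protein-coding genes. Because the groups differ in both, this ranks genes mainly by a similar difference between groups. The 5 genes nearest to TXNIP were CBR1 (distance 0.22), DLL4 (0.25), ACAT2 (0.30), LCE1F (0.31) and SYT7 (0.33), with log2 fold changes from -1.61 to -1.33. CBR1 stood at 73.5 ± 3.6 RPM in controls and 27.6 ± 0.7 RPM in knockdowns (SD, n = 3). Genes near to ARRDC4 were LCE2A (0.36), GABRA4 (0.39), TM7SF2 (0.57) and BCL2A1 (0.57). LCE2A stood at 6.81 ± 0.73 RPM in controls and 2.03 ± 0.09 RPM in knockdowns (SD, n = 3), with a log2 fold change of -1.73. TXNIP and ARRDC4 lay 0.44 apart. TXNIP would be the 4th nearest gene to ARRDC4, and ARRDC4 the 17th nearest to TXNIP.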

How the data were processed

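PolyA RNA was sequenced from 6 libraries, 3 per group. The submitters' processing notes name hg19, Bowtie2 and featureCounts, with no versions; the strand setting is not given in the sources used here. The authors deposited log2 CPM values. Undoing an offset of 0.5 reads gave whole numbers (within 0.01 reads) for 100% of values, and RPM was computed from those reads and the effective library sizes (0.988 to 1.009 times the totals). No value column was left out. The deposited log2 values were fitted with limma 3.58.1 (R 4.3.3; lmFit, eBayes with trend, group as the sole term, two-sided) for the 19048 genes with a mean of at least 10 normalized reads, after the fit was tested on simulated data. P-values were adjusted by Benjamini-Hochberg and called at 0.05. The offset pulls the log2 fold changes of genes with few reads towards a positive value, because the knockdown libraries were shallower. Falls of such genes are thus understated, and small rises may be overstated. Exon lengths are from GENCODE 29 by gene ID, and for TXNIP by symbol. Each is the union of all annotated exons of the gene, and which transcripts were made was not examined. Members, lists and tests were chosen with earlier results of these data known. Named list genes were all called genes where 4 or fewer were called, otherwise the 4 largest changes, plus fixed core genes; genes like a member were the 5 nearest with at least 50 normalized reads. Some genes that this rule names are not reported here. The alternatives were pseudocounts of 1 and 5 RPM, no filter, a filter of 50 reads, library totals, quantile normalization, voom, other variance models, a replicate block and leaving out each library.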

Additional observations from a re-analysis of the deposited data

How the results depend on the processing

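Over 16 other fits, the log2 fold change ran from -1.59 to -1.49 for TXNIP, -1.99 to -1.63 for ARRDC4, -0.72 to -0.66 for MLXIP, -0.39 to -0.29 for MLX and 0.61 to 0.72 for ARRDC3. These ranges describe the members and support nothing, since the contrast was known when they were named. ARRDC1 lost its call in 7: without a trend, with robust eBayes and with the replicate number as a block (-0.53 each), and without control replicate 1, control replicate 3, knockdown replicate 1 or knockdown replicate 3. Its range over the 6 fits that each dropped 1 library was -0.72 to -0.33, and why it moved is unknown: the cause was not tested. The number of members called was 5 or 6, that of list genes 44 to 56, and that of all genes 5807 (without control replicate 3) to 10220 (no filter). Without a filter 5542 genes were higher, against 3325, among 57819 genes tested, and the median log2 fold change was 0.60. Of the 57819, 23130 had 0 reads in all libraries, and none of these was called. The log2 values of such genes come from the offset and the library sizes alone, and the knockdown libraries were shallower. The median of 0.60 is therefore not to be read as a rise in expression. Quantile normalization raised the number of NEDD4-family ligases and adaptors called higher from 3 to 5.

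Replicate numbers shared by the groups showed no pairing. Libraries 1, 2 and 3 of the 2 groups had correlated deviations of -0.15, -0.18 and 0.07, and not every library correlated best with its own number. Adding the replicate block to the model left 6454 genes called, against 7805, and 5 members. Depth limits ARRDC5 and MLXIPL, which were not fitted.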

Other observations

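The E-box-like pair found in the TXNIP promoter was followed in the other genes that hold it. Of the genes fitted that have a RefSeq window, 75 hold such a pair, of which 23 were higher and 20 lower in the knockdown (limma, adjusted p under 0.05), with a median log2 fold change of 0.06. That is 30.7% higher and 26.7% lower. Among the 11060 genes without a pair the shares were 21.5% and 25.9%, and the median was -0.02. Lower by at least 1 on the log2 scale were 2 of the 75, one of them TXNIP, whose promoter prompted the search, and 123 of the 11060. In the fixed lists, PKLR (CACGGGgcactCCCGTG), RGS16 (CACGTCtcatcCCCGTG) and BHLHE40 (CACGTGagactCATGTG) hold a pair. RGS16 rose, BHLHE40, a clock-linked repressor, stood at 183 ± 6 RPM in controls and 196 ± 3 RPM in knockdowns (SD, n = 3; limma adjusted p = 0.062), and PKLR was not fitted. These are counts of letters in short windows, set beside fold changes, with no test.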
